A study of Rattus norvegicus with 16 samples.

Results

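The 10 genes described here encode the insulin-like growth factors (Igf1, Igf2), their receptors (Igf1r, Igf2r) and their binding proteins (Igfbp1 to Igfbp6), read in isolated rat pancreatic islets. They were chosen by gene symbol from the annotation of the array, where they are 10 of 10412 genes named by a probe set of their own, and 19 of its 15923 probe sets named a member. Each probe set is given apart. The set was selected on the measured rise of Igf1 and Igfbp1 intensity in islets given a PPARγ virus and its agonist. The values of Igf1 and Igfbp1 are therefore described without a test. The other 8 genes came in by family name, and 7 of them were bright enough to be tested.

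Islets were infected with an adenovirus encoding PPARγ (peroxisome proliferator-activated receptor gamma, a ligand-activated transcription factor) or with a null adenovirus, at 50 viral particles per cell for 32 h. They were then kept for 16 h in the PPARγ agonist GW347845 at 200 nM or in vehicle, 0.004% DMSO. Of the arrays used, 4 had PPARγ virus and compound, 4 had PPARγ virus and vehicle, 3 had null virus and compound and 3 had null virus and vehicle. Every group thus carried an adenovirus, and no uninfected islets entered a comparison. An islet preparation holds several endocrine cell types and other pancreatic cells, and the virus may reach only some of them. Whether replicates came from separate preparations is not stated, so p-values measure the spread between these arrays, which may be technical.

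Insulin-like growth factors are secreted peptides related to insulin that drive growth and survival. They signal through the tyrosine kinase encoded by Igf1r, while the receptor encoded by Igf2r takes up and clears the Igf2 product. Binding proteins hold the ligands in blood and tissue, prolong their life and limit or direct their access to the receptor. In islets this system is known for supporting beta cell mass. Igfbp1 is best known in liver, where insulin represses it through forkhead factors.

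Values are intensities, the brightness of a probe set on a linear scale that the authors had brought to a common level on each array. Log2 changes were taken on log2(intensity + 4.6), which understates the change of dim probe sets, and are given ± SE from limma. Of the 19 probe sets, 13 were above an intensity of 39.3 in at least 4 arrays and entered the fit with 10078 probe sets in all. These were 3 probe sets of Igf1 and Igfbp1 and 10 probe sets of 7 of the other genes. The remaining 6, among them both of Igfbp6, never exceeded 44.8.

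Pparg intensity was 4593 to 6199 in the 8 PPARγ virus arrays and 25.6 to 51.4 in the 6 null virus arrays. A further array, deposited with identical values as replicate 2 of both null virus groups, was left out. Within each virus, arrays of the same replicate number deviated together, so differences between compound and vehicle are also given by numbered pair. The ratio of 3′ to 5′ beta-actin signal, a measure of RNA integrity and labelling, was higher with compound in 7 of 7 pairs, and that of Gapdh in 4 of 7. The part of this ratio in the results below was not tested.

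Igf1 encodes the growth factor that liver releases under growth hormone and that many tissues also make locally. Its probe set 1370333_a_at read 92.7, 84.5, 55.2 and 82.9 in the PPARγ virus compound arrays 1 to 4, and 43.3, 5.4, 12.2 and 8.5 in the PPARγ virus vehicle arrays. It read 8.6, 6.9 and 9.0 in the null virus compound arrays 1, 3 and 4, and 10.1, 4.2 and 9.3 in the null virus vehicle arrays. All 4 arrays with receptor and agonist were above the other 10. Every other array but PPARγ virus vehicle replicate 1 was at 12.2 or below.

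The mean of this probe set was 78.8 ± 16.3 with PPARγ virus and compound (SD, n = 4), against 17.4 ± 17.5 with PPARγ virus and vehicle (n = 4), 8.17 ± 1.12 with null virus and compound (n = 3) and 7.87 ± 3.20 with null virus and vehicle (n = 3). The last 3 groups overlapped, so their order is not set beyond their spread. Compound against vehicle gave a log2 change of 2.19 ± 0.39 under the PPARγ virus, or 4.55-fold, and 0.07 ± 0.45 under the null virus. Under the PPARγ virus it was positive in 4 of 4 numbered pairs, from 1.02 to 3.16. The PPARγ virus against the null virus gave 2.69 ± 0.42 in compound and 0.57 ± 0.42 in vehicle. The value in vehicle came mainly from PPARγ virus vehicle replicate 1 and was 0.10 without it. The combined contrast, of PPARγ virus and compound over null virus and vehicle, gave 2.75 ± 0.42, or 6.75-fold. Since the null virus arrays lay far below the intensity limit, this fold depends on the pseudocount, and the log2 change was 3.22 with a pseudocount of 1 and 1.98 with 16.

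Among the 10078 probe sets ordered by log2 change, 1370333_a_at stood 3rd for compound under the PPARγ virus, 10th in the combined contrast and 2nd for the interaction, the difference between the compound effects under the PPARγ virus and the null virus. PPARγ virus compound arrays above the other 10 were found in 43 of the 10078, or 0.427%, and above all PPARγ virus vehicle arrays in 0.645%. Every pair was higher with compound under the PPARγ virus in 7.76%. Igf1 was chosen for this pattern, and the rank describes it only. The probe set passed the intensity limit through 5 arrays, the 4 with receptor and agonist and PPARγ virus vehicle replicate 1.

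The other Igf1 probe set, 1388469_at, gave a smaller difference on a higher floor. It read 87.0, 80.3, 56.6 and 69.8 in the PPARγ virus compound arrays, and 64.6, 47.5, 62.8 and 55.1 in the PPARγ virus vehicle arrays. It read 47.9, 41.8 and 39.9 in the null virus compound arrays, and 48.4, 34.9 and 60.4 in the null virus vehicle arrays. Its mean was 73.4 ± 13.3 with PPARγ virus and compound and 57.5 ± 7.84 with PPARγ virus and vehicle (SD, n = 4 each), and 43.2 ± 4.18 with null virus and compound and 47.9 ± 12.8 with null virus and vehicle (n = 3 each). In compound, the PPARγ virus arrays were above all null virus arrays (4.56% of probe sets), while compound and vehicle overlapped under either virus.

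For 1388469_at the combined log2 change was 0.58 ± 0.19, or 1.50-fold, and the virus gave 0.69 ± 0.19 in compound and 0.26 ± 0.19 in vehicle. Compound gave 0.32 ± 0.18 under the PPARγ virus, positive in 3 of 4 pairs, and -0.11 ± 0.20 under the null virus. Across the 14 arrays the log2 values of both Igf1 probe sets correlated at r = 0.84, and their deviations from the group means at r = 0.64. PPARγ virus compound replicate 3 was the lowest of its group on both. Which stretch of the transcript each probe set reads was not analysed here.

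Igfbp1 encodes a short-lived binding protein. Its probe set 1368160_at read 280.1, 132.8, 315.1 and 116.4 in the PPARγ virus compound arrays, and 172.3, 65.4, 110.8 and 43.3 in the PPARγ virus vehicle arrays. It read 33.9, 33.1 and 35.6 in the null virus compound arrays, and 50.8, 45.6 and 40.2 in the null virus vehicle arrays. In compound, every PPARγ virus array was above every null virus array, as in 4.56% of probe sets, and PPARγ virus compound arrays were above all null virus vehicle arrays, as in 4.06%. In vehicle, PPARγ virus replicate 4 lay among the null virus arrays.

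Group means of Igfbp1 were 211.1 ± 101.1 with PPARγ virus and compound (SD, n = 4), against 97.95 ± 57.0 with PPARγ virus and vehicle (n = 4), 34.2 ± 1.28 with null virus and compound (n = 3) and 45.5 ± 5.30 with null virus and vehicle (n = 3). The virus gave a log2 change of 2.35 ± 0.39 in compound, or 5.09-fold, and 0.86 ± 0.39 in vehicle, which was 0.54 without PPARγ virus vehicle replicate 1. The combined change was 1.98 ± 0.39, or 3.95-fold. In vehicle, 3 of the 4 PPARγ virus arrays were above all null virus arrays.

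The compound differences of Igfbp1 had opposite signs under the PPARγ virus and the null virus. Under the PPARγ virus the log2 change was 1.12 ± 0.36, or 2.17-fold, and positive in 4 of 4 pairs, from 0.69 to 1.47. Under the null virus it was -0.36 ± 0.42 and negative in 3 of 3 pairs (11.5% of probe sets), from -0.53 to -0.16, and the compound arrays lay below all vehicle arrays (2.53% of probe sets). The interaction was 1.48 ± 0.56. Across the table, 77 of the 10078 probe sets, or 0.764%, were higher in every PPARγ virus pair and lower in every null virus pair. The left-out null virus array read 52.1.

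**Figure D1:**
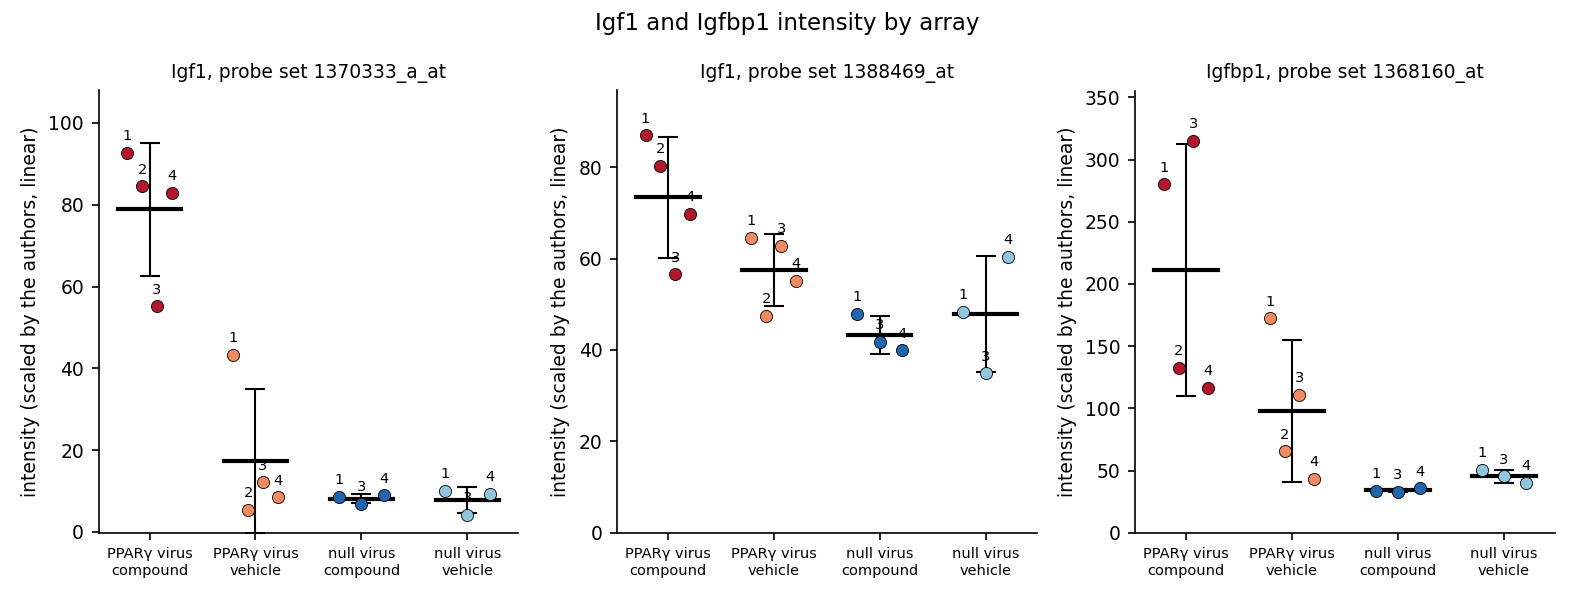
Intensity of the Igf1 and Igfbp1 probe sets on each array (linear axis, scaled by the authors), with the replicate number beside each point, for 4 PPARγ virus compound, 4 PPARγ virus vehicle, 3 null virus compound and 3 null virus vehicle arrays. Thick bars are means and error bars SD. Igf1 1370333_a_at was at 55.2 to 92.7 with receptor and agonist and at 43.3 or below elsewhere, while Igfbp1 was also above the null virus in most PPARγ virus vehicle arrays.

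The upstream sequences of Igf1 and Igfbp1, the genes picked for their rise, are shown with a short motif known from the Igfbp1 promoter. They are the 250 bases before the RefSeq start of each gene, on the plus strand of GRCr8, at chr7:24172282-24172531 for Igf1 and chr14:86261027-86261276 for Igfbp1. Capitals mark CAAAACA, the core letters of the insulin response element known from the Igfbp1 promoter.
Igf1 promoter: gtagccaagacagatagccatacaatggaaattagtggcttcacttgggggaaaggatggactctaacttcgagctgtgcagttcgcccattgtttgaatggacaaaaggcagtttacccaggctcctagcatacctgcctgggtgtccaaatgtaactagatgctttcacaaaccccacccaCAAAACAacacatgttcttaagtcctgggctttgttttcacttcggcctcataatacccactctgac
Igfbp1 promoter: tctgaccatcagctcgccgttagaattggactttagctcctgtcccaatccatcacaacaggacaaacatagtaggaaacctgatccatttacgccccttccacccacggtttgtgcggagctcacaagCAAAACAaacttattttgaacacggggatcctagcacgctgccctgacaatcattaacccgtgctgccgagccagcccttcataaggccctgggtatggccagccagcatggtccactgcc
The match lay 67 to 61 bases before the start of Igf1 and 121 to 115 before that of Igfbp1. Searched on both strands, CAAAACA was in 1826 of 33469 rat promoters of this length, or 5.46%. Of the 10 genes, 2 held it, Igf1 and Igfbp1. Since the letters are known from the Igfbp1 promoter, the match there was fixed in advance. Only the match of Igf1 can be read beside the 5.46%, and no conclusion is drawn from it. The direct repeat bound by PPARγ with its partner, spelled AGGTCA, a base of any kind and AGGTCA again, was in 17 promoters, or 0.0508%, and in none of the 10 genes. Its repeated unit AGGTCA, which the repeat contains, was in 14.1% of promoters and also in none of the 10 genes. The forkhead letters GTAAACA were in 3.21% of promoters and, among the 10 genes, in that of Igfbp6. These are matches of letters in 1 window and describe nothing beyond it.

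Igf2 encodes the second ligand, known for growth before birth and, in rodent islets, as a beta cell product. Its probe set 1367571_a_at read 142.9, 426.3, 157.7 and 156.4 in the PPARγ virus compound arrays and 116.1, 304.6, 177.8 and 138.7 in the PPARγ virus vehicle arrays. It read 144.1, 161.3 and 153.9 in the null virus compound arrays and 159.6, 138.1 and 139.5 in the null virus vehicle arrays. Both PPARγ virus arrays of number 2 were far above the rest, and the groups overlapped. The combined log2 change was 0.43 ± 0.34 (limma adjusted p = 0.826), and 0.06 without PPARγ virus compound replicate 2. The 3 other Igf2 probe sets were dim and not tested. The highest of their values was 28.6, in PPARγ virus vehicle replicate 3.

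None of the other genes with a tested probe set passed the test in any contrast. Of their 10 tested probe sets, limma called 0 at an adjusted p of 0.05 in the combined contrast, where 0.665% of all probe sets were called. It called 0 of 10 for the virus in compound (0.705% of all called), 0 of 10 for the virus in vehicle (0.0397%), 0 of 10 for compound under the PPARγ virus (0.0595%), 0 of 10 for compound under the null virus (0% of all) and 0 of 10 for the interaction (0%). With so few calls over the table, 0 of 10 is close to the background in each. An unadjusted p under 0.05 was found in 1 of 10 in the combined contrast (8.48% of all probe sets), for compound under the PPARγ virus (2.93%) and for compound under the null virus (0.943%), Igfbp2 every time. It was found in 0 of 10 for the virus in compound (9.19%), the virus in vehicle (4.43%) and the interaction (1.42%). Igfbp2 passed the intensity limit through vehicle arrays alone, so its p-values here and below are a description. With replicate number as a block within each virus, limma again called 0 of 10 for compound under the PPARγ virus (0.397% of all called), 0 of 10 under the null virus (0%) and 0 of 10 for the interaction (0.0496%). At an unadjusted p under 0.05 this fit held 3 of 10 for compound under the PPARγ virus (Igfbp2, Igfbp3 1386881_at and Igfbp5 1370960_at, with 8.71% of all probe sets), 2 of 10 under the null virus (Igfbp2 and Igfbp4, with 4.08%) and 2 of 10 for the interaction (Igfbp3 1386881_at and Igfbp4, with 5.8%). A block over all groups also gave 0 of 10, where 1.76% of all probe sets were called in the combined contrast, 2.09% for the virus in compound, 0.337% for the virus in vehicle, 0.139% for compound under the PPARγ virus and 0.0298% for the interaction. Their median log2 change was 0.04 in the combined contrast, beside -0.03 over all probe sets.

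**Figure D2:**
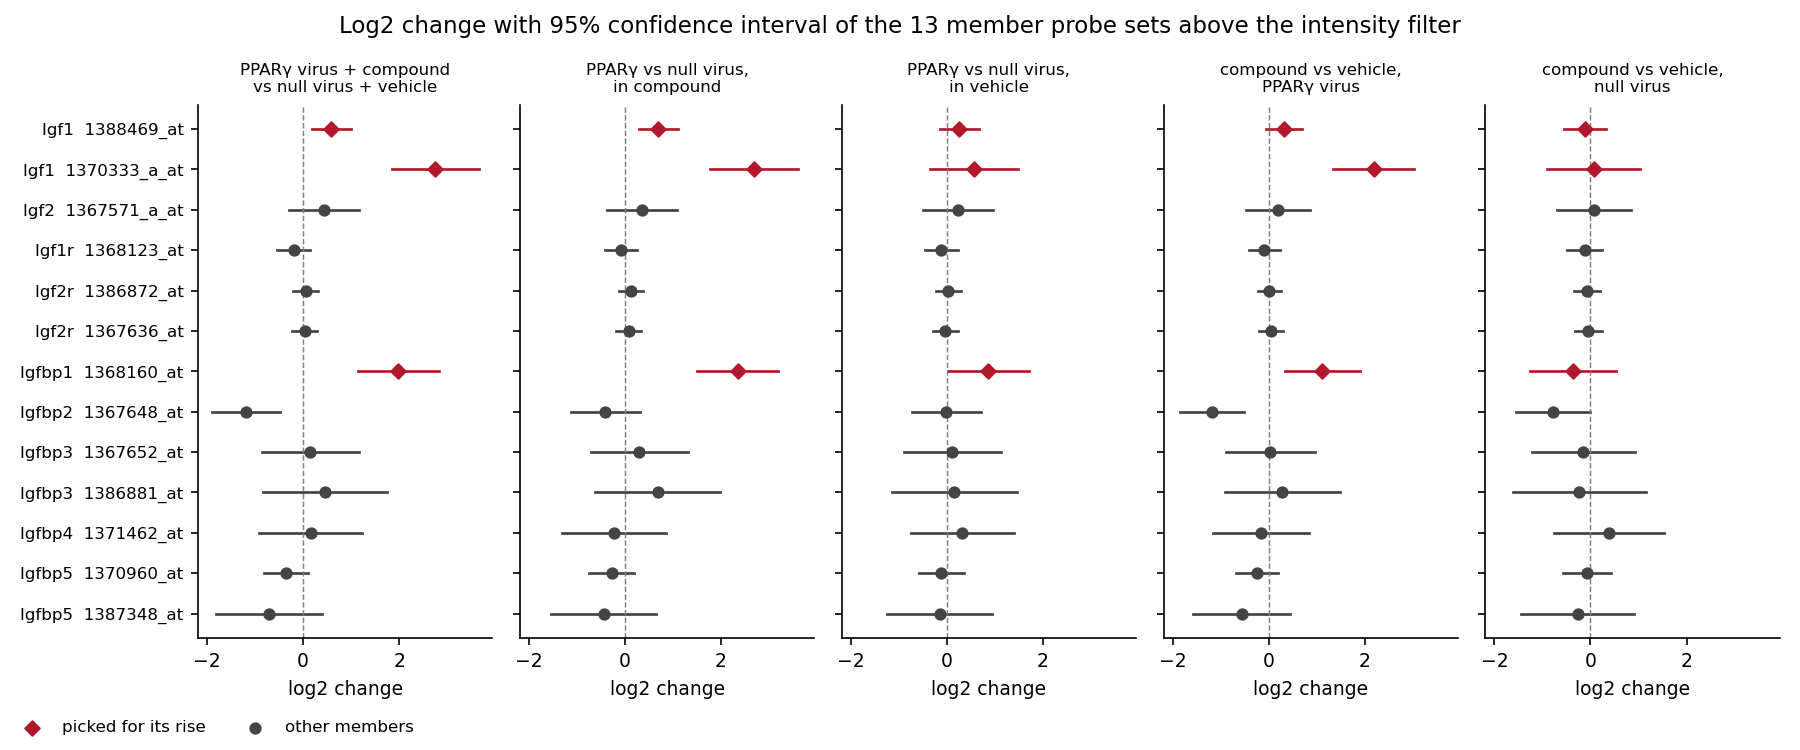
Log2 change with its 95% confidence interval for the 13 probe sets above the intensity limit (rows), in 5 contrasts (panels). Diamonds are Igf1 and Igfbp1, picked for their rise, and circles the other genes. Outside Igf1 and Igfbp1, the interval of Igfbp2 lay below 0 in the combined contrast and in both compound contrasts. Igfbp2 passed the intensity limit through vehicle arrays alone, so its intervals are a description and support no fall with compound.

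Of the receptors, Igf1r encodes the tyrosine kinase that both growth factors activate. Its probe set 1368123_at read 217.5, 158.4, 227.8 and 162.1 in the PPARγ virus compound arrays and 234.0, 173.8, 234.7 and 171.5 in the PPARγ virus vehicle arrays. It read 184.9, 216.5 and 200.9 in the null virus compound arrays and 233.4, 200.6 and 220.4 in the null virus vehicle arrays. The groups overlapped throughout. It had a combined log2 change of -0.20 (95% confidence interval -0.54 to 0.14, limma adjusted p = 0.826). Compound arrays were lower in 4 of 4 PPARγ virus pairs, as in 10.2% of all probe sets, by 0.13 at most.

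Igf2r encodes the mannose 6-phosphate receptor, which carries lysosomal enzymes and clears the Igf2 product. Probe set 1386872_at ranged from 406.7 to 509.3 with PPARγ virus and compound, 394 to 459.8 with PPARγ virus and vehicle, 365.6 to 476 with null virus and compound and 401.1 to 471.3 with null virus and vehicle. Probe set 1367636_at ranged from 175 to 240 over the 14 arrays. Both gave narrow intervals around 0. In the combined contrast the change was 0.05 (95% confidence interval -0.20 to 0.31) for 1386872_at and 0.03 (-0.24 to 0.30) for 1367636_at.

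Igfbp2, which encodes an abundant circulating binding protein, gave the largest negative differences among these genes. Its probe set 1367648_at read 33.5, 9.8, 14.1 and 7.8 in the PPARγ virus compound arrays and 48.7, 28.4, 33.3 and 45.2 in the PPARγ virus vehicle arrays. It read 16.2, 22.8 and 23.3 in the null virus compound arrays and 30.1, 40.1 and 47.0 in the null virus vehicle arrays. The 4 arrays above the intensity limit were all vehicle arrays, and no compound array exceeded 33.5. The probe set thus entered the fit through the groups where it was high, so its p-values and shares are given as a description and support no fall with compound. Compound was lower than vehicle in all 7 numbered pairs (1.37% of the 10078 probe sets). Under the null virus the groups did not overlap (2.53% of probe sets), and under the PPARγ virus replicate 1 with compound reached into the vehicle range.

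Group means of Igfbp2 were 16.3 ± 11.8 with compound and 38.9 ± 9.61 with vehicle under the PPARγ virus (SD, n = 4 each), and 20.8 ± 3.96 with compound and 39.1 ± 8.50 with vehicle under the null virus (n = 3 each). The log2 change with compound was -1.18 ± 0.31 under the PPARγ virus (limma adjusted p = 0.703) and -0.78 ± 0.36 under the null virus (adjusted p = 1.00). With replicate number as a block within each virus, these adjusted p-values were 0.0559 and 1.00. The combined change was -1.19 ± 0.34 (limma adjusted p = 0.187, and 0.209 in the fit with no intensity limit), while the virus alone gave -0.01 in vehicle. The interaction was -0.40 (95% confidence interval -1.41 to 0.61, limma adjusted p = 1.00), so the compound differences under the PPARγ virus and the null virus were not told apart. Without PPARγ virus compound replicate 1 the combined change was -1.53 and had a limma adjusted p of 0.0220, again among probe sets kept by the intensity limit. It did not reach the threshold in the other 9 fits without an array in which it could be tested, nor in the other alternatives. The left-out null virus array read 20.2.

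**Figure D3:**
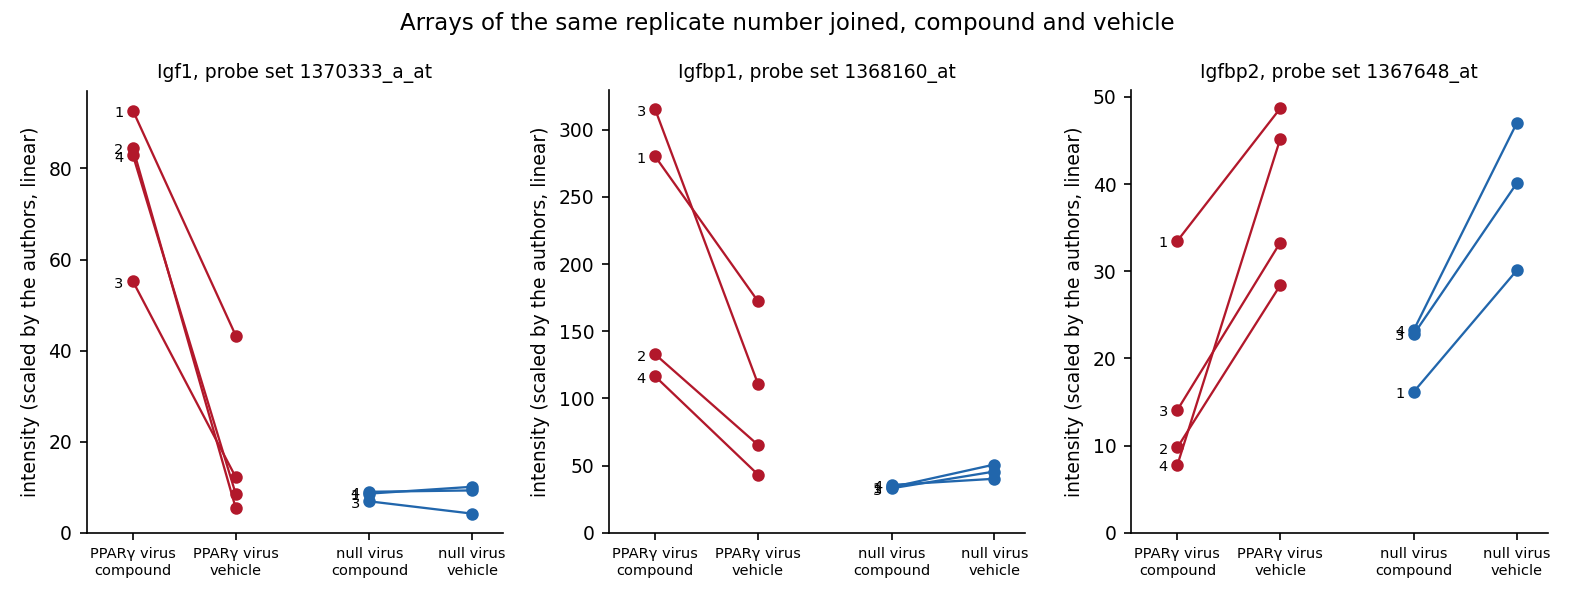
Intensity (linear axis, scaled by the authors) of Igf1 1370333_a_at, Igfbp1 1368160_at and Igfbp2 1367648_at, with a line joining compound and vehicle arrays of the same replicate number, for 4 PPARγ virus pairs and 3 null virus pairs. Igf1 and Igfbp1 were higher with compound in 4 of 4 PPARγ virus pairs, Igfbp1 was lower in 3 of 3 null virus pairs, and Igfbp2 was lower with compound in 7 of 7 pairs.

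Igfbp3 encodes the main carrier of both growth factors in blood. Its probe set 1367652_at read 1104.5, 356.0, 1055.8 and 412.0 in the PPARγ virus compound arrays and 1216.2, 321.8, 983.4 and 402.2 in the PPARγ virus vehicle arrays. It read 594.5, 372.4 and 641.5 in the null virus compound arrays and 655.6, 458.2 and 647.3 in the null virus vehicle arrays. Numbers 1 and 3 of the PPARγ virus were high and numbers 2 and 4 low, with compound and vehicle alike. In the combined contrast the log2 change was 0.15 ± 0.47 (limma adjusted p = 0.968), and its sign turned when 1 of 3 arrays was left out, PPARγ virus compound replicate 1 or 3 or null virus vehicle replicate 3.

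The second Igfbp3 probe set, 1386881_at, followed the same pattern, with r = 0.97 between the log2 values of both over the 14 arrays. It read 457.3, 122.3, 444.9 and 141.7 in the PPARγ virus compound arrays and 441.7, 84.6, 338.4 and 122.5 in the PPARγ virus vehicle arrays. It read 210.9, 74.3 and 217.6 in the null virus compound arrays and 211.7, 110.4 and 240.4 in the null virus vehicle arrays. Compound was higher in 4 of 4 PPARγ virus pairs, by a log2 change of 0.05 to 0.51. It was lower in 3 of 3 null virus pairs, from -0.54 to -0.005. These signs were also seen for Igfbp1 and in 0.764% of all probe sets, but here the smallest differences were slight. On 1367652_at compound was higher in 3 of 4 PPARγ virus pairs and lower in 3 of 3 null virus pairs, with an interaction of 0.19. For 1386881_at the interaction was 0.52 ± 0.85 (limma adjusted p = 1.00), and its adjusted p was 0.681 with the block within each virus. Igfbp1 and Igfbp3 are neighbours on rat chromosome 14 in the RefSeq gene table, as are Igfbp2 and Igfbp5 on chromosome 9.

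Igfbp4, which encodes a binding protein that restrains the growth factors until it is cleaved, shared the division by number. Its probe set 1371462_at read 240.5, 82.4, 196.1 and 58.9 in the PPARγ virus compound arrays and 271.1, 75.5, 243.4 and 73.5 in the PPARγ virus vehicle arrays. It read 163.3, 130.6 and 144.8 in the null virus compound arrays and 163.5, 94.4 and 86.9 in the null virus vehicle arrays. The null virus values lay between the high and the low PPARγ virus arrays. Igfbp4 had a combined log2 change of 0.16 ± 0.50 (limma adjusted p = 0.969).

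The same division by number ran through the markers of islet hormone cells other than beta cells (6 of 9 listed genes on the array, led by the glucagon gene Gcg and the pancreatic polypeptide gene Ppy). Their summed intensity was 8486, 542.1, 9040.1 and 2365 in the PPARγ virus compound arrays and 8582, 1053, 9901 and 2476 in the PPARγ virus vehicle arrays. It was 6324, 5486 and 7510.0 in the null virus compound arrays and 5465, 4689 and 9267 in the null virus vehicle arrays. High sums went with high Igfbp3, Igfbp4, Igfbp1 and Igf1r in the PPARγ virus arrays, and the array with the lowest sum in each PPARγ virus group had the highest Igf2. In the 6 null virus arrays the sums spanned a smaller range and Igfbp1 stayed between 33.1 and 50.8. Fewer cells of a type and less RNA per cell cannot be told apart in whole islets, and the part of this difference in the results was not tested.

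**Figure D4:**
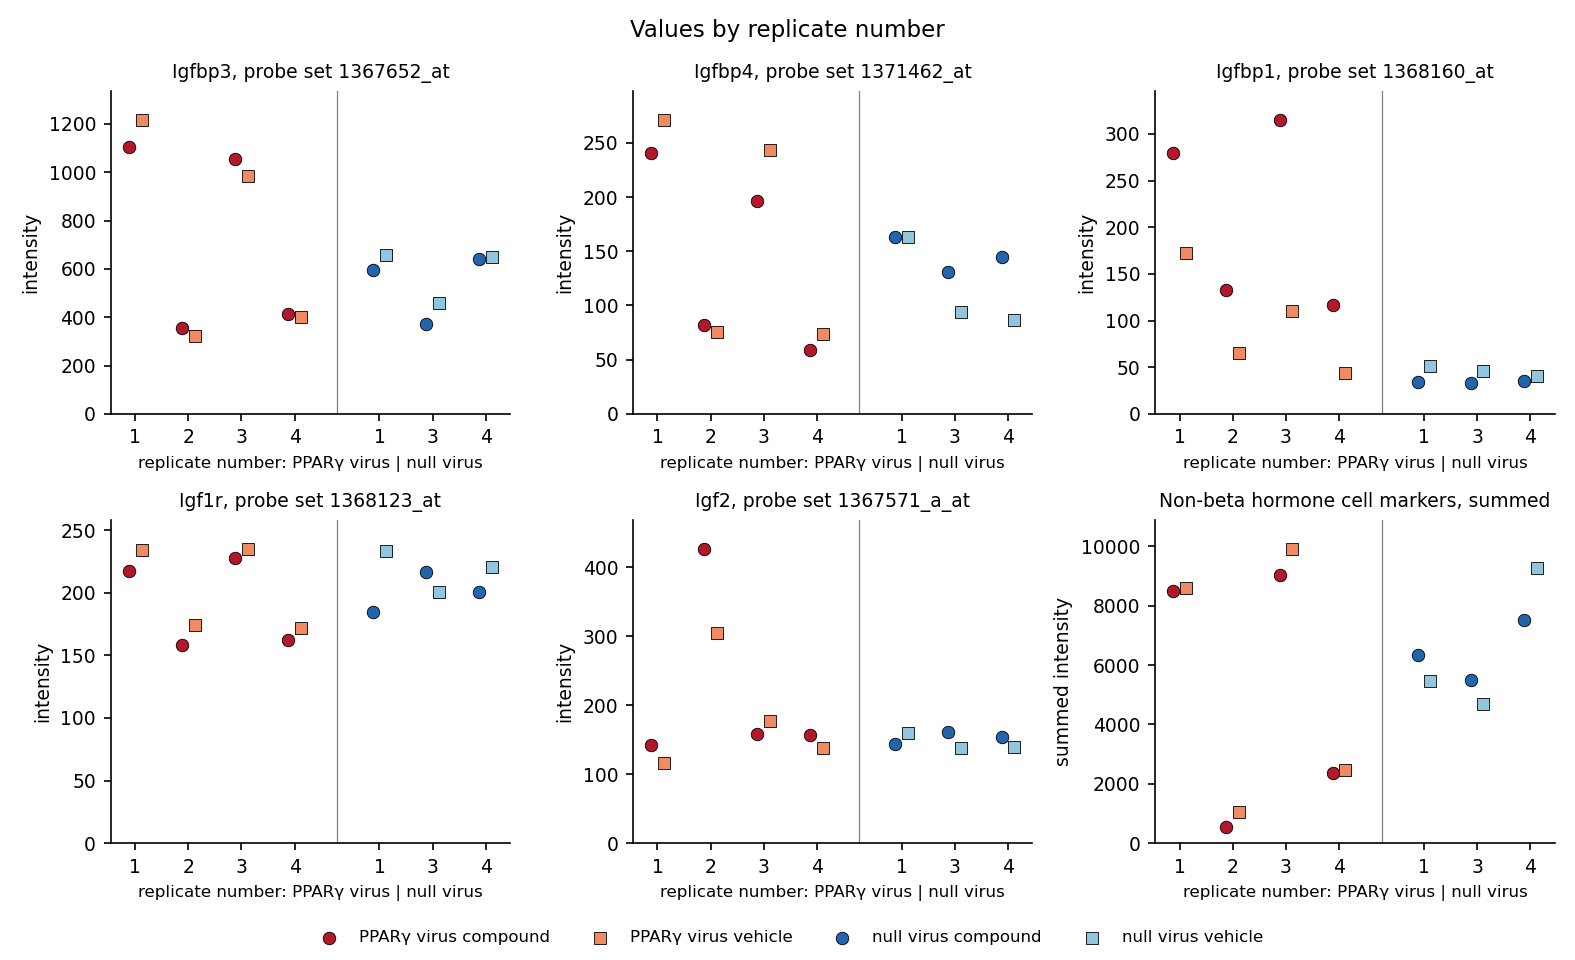
Intensity (linear axes) of Igfbp3, Igfbp4, Igfbp1, Igf1r and Igf2 and the summed intensity of 6 marker genes of islet hormone cells other than beta cells, by replicate number, with PPARγ virus arrays left of the line and null virus arrays right of it. Circles are compound and squares vehicle. In the PPARγ virus arrays numbers 1 and 3 were above numbers 2 and 4 for the hormone sum, Igfbp3, Igfbp4 and Igf1r, and number 2 was highest for Igf2.

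Igfbp5 encodes a binding protein that attaches to the matrix. Its probe set 1370960_at read 131.2, 131.2, 85.1 and 84.0 in the PPARγ virus compound arrays and 141.6, 141.1, 128.4 and 96.7 in the PPARγ virus vehicle arrays. It read 160.8, 102.1 and 130.4 in the null virus compound arrays and 179.2, 115.1 and 122.6 in the null virus vehicle arrays. Compound was lower in 4 of 4 PPARγ virus pairs, as in 10.2% of all probe sets, and all groups overlapped. The combined log2 change was -0.36 ± 0.22 (limma adjusted p = 0.737).

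Probe set 1387348_at of Igfbp5 ranged from 16.1 to 139.7 with PPARγ virus and compound and from 66.6 to 122.4 with PPARγ virus and vehicle, with a combined log2 change of -0.71 ± 0.51 (limma adjusted p = 0.800). Its lowest value came from PPARγ virus compound replicate 4, and without that array the change was -0.12. The third probe set, 1387347_at, stayed between 2.4 and 5.9. Igfbp6, whose product prefers the Igf2 product as a ligand, ranged from 18.3 to 44.8 on 1372168_s_at and from 0.5 to 12.9 on 1387625_at, too dim to be tested.

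The wider pathway was followed in 5 lists, on accessory proteins and proteases, the growth hormone axis, receptor substrates with phosphoinositide 3-kinase and Akt, the Ras cascade, and transcription factors known to act on Igfbp1. Of their 68 distinct genes above the intensity limit, 1 rose and 0 fell for the virus in compound, where 0.635% of all probe sets rose and 0.0695% fell. None passed in the other contrasts. List medians lay between -0.11 and 0.12 in all 6 contrasts, beside -0.03 to 0.00 over all probe sets.

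The gene that passed was Foxo3, a forkhead factor that insulin and growth factor signalling excludes from the nucleus through Akt. Foxo3 also had probe sets 1376210_at and 1376229_at, which are not described here. Its probe set 1376593_at read 537.7, 429.1, 450.5 and 436.2 in the PPARγ virus compound arrays and 350.8, 352.5, 364.9 and 338.6 in the PPARγ virus vehicle arrays. It read 347.0, 284.7 and 306.9 in the null virus compound arrays and 334.1, 335.7 and 335.2 in the null virus vehicle arrays. All 4 arrays with receptor and agonist were above the other 10, as for Igf1 1370333_a_at and in 0.427% of the 10078 probe sets. The virus in compound gave 0.56 ± 0.11 (limma adjusted p = 0.0222), compound under the PPARγ virus 0.39 (adjusted p = 0.565), the combined contrast 0.46 (adjusted p = 0.0829) and the virus in vehicle 0.07.

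Of the other pathway genes, Ghr, the growth hormone receptor gene, had a combined log2 change of 0.13 (limma adjusted p = 0.969), Irs2, a substrate of the insulin and growth factor receptors, 0.32 (adjusted p = 0.857) and Igfbp7, a related secreted protein, 0.04 (adjusted p = 0.979), and these 3 did not pass. The insulin receptor gene Insr and the substrate gene Irs1 never exceeded 37.9 and 23.4, and Igfals, which encodes the third part of the circulating carrier complex, stayed at 3.0 or below.

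By likeness, the genes whose log2 values followed Igf1 1370333_a_at most closely over the 14 arrays were C8h15orf39 (r = 0.94), Angptl4 (0.93), Fabp4 (0.91), Gsta4 (0.90) and Mgst1 (0.89). Angptl4, a secreted lipase inhibitor, and Fabp4, a fatty acid-binding protein of adipocytes, are textbook PPARγ targets. Igf1 1388469_at was followed by Piezo1 (0.89), the other Igf1 probe set (0.84), Mgst1 (0.83), Acadvl (0.82) and Gpd1 (0.82). Igfbp1 was followed by Gsta4, a glutathione transferase (0.96), Duox2 (0.95), Bpifa5 (0.94), Slc16a7 (0.94) and Cx3cl1 (0.94). These coefficients describe arrays that share groups and numbers, and differences between the groups enter them. Since Igf1 and Igfbp1 were picked for their rise with receptor and agonist, genes that rise likewise come first by construction. That known targets are among them therefore says nothing about Igf1 or Igfbp1.

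Taken as deviations from the group means, other genes came closest. For Igfbp1 they were Cited2 (0.95), N4bp2 (0.94), Glis2 (0.94), Nmbr (0.93) and Igfbp4 (0.93), so a further binding protein of the set stood among the 5 nearest of all single-gene probe sets. For Igf1 1370333_a_at they were Ercc8 (0.88), Zfp91 (0.87), Ptpn18 (0.85), Sorbs3 (0.85) and Cd99 (0.84). For Igf1 1388469_at they were Nrm (0.91), Sec61a1 (0.88), Timeless (0.86), Pole (0.83) and Snrpa (0.83). The lists of both Igf1 probe sets shared no gene on this measure. In the PPARγ virus arrays, deviations of Igfbp1 and Igfbp4 also correlated with the hormone cell sum, at r = 0.78 and 0.84. In the null virus arrays these coefficients were -0.55 and -0.31. The part of this sum in the likeness of Igfbp1 and Igfbp4 was not tested.

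Igf1 and Igfbp1 are both known as liver products and Igf1 also as an adipocyte and stromal one, so markers of such cells were read beside them. Of the liver markers, Apoa1 stayed at 9.9 or below and Tat at 4.2 or below on every array, and Alb ranged from 29.0 to 74.0 with PPARγ virus and compound, 21.4 to 76.8 with PPARγ virus and vehicle, 31.4 to 40.4 with null virus and compound and 35.8 to 44.8 with null virus and vehicle. The sum of the 14 listed liver markers on the array was 3480 to 7106 with PPARγ virus and compound, 3255 to 6914 with PPARγ virus and vehicle, 2188 to 5389 with null virus and compound and 2924 to 4769 with null virus and vehicle. Most of this sum came from listed liver genes that are not described one by one. The 9 of them above the intensity limit had a median log2 change of 0.29 in the combined contrast, 0.35 for the virus in compound and 0.32 for the interaction, beside -0.03, -0.03 and -0.02 over all probe sets, and 0.10 for compound under the PPARγ virus, 0.09 for the virus in vehicle and -0.09 for compound under the null virus. They were thus higher on the median where Igf1 and Igfbp1 were higher, 0 of 9 passed in any contrast, and their part in the results was not tested. Serpina1 went the other way, with a mean of 72.5 with PPARγ virus and compound and 88.8 with PPARγ virus and vehicle. Under the null virus its mean was 89.7 with compound and 91.7 with vehicle. Some listed genes, such as Ttr, are also expressed by islet cells. Ttr read 629, 42, 506.4 and 82.2 in the PPARγ virus compound arrays, high in numbers 1 and 3 like the hormone cell sum.

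Of 7 adipocyte genes, which were listed also as PPARγ targets, 4 were on the array and 0 reached the intensity limit. The 4 genes summed to 52.6 to 91.1 with PPARγ virus and compound and 41.3 to 53.8 with PPARγ virus and vehicle. Under the null virus the sum was 38.5 to 53.7 with compound and 41.7 to 47.1 with vehicle. Lep never exceeded 3.7 and Plin1 never exceeded 20.4. On PPARγ virus compound replicate 1, where the sum was 91.1, they read 1.3 and 12.6. The higher sums with PPARγ virus and compound thus came mainly from the other genes on the array, which are not described one by one. The 16 stromal markers summed to 7342 to 10161 with PPARγ virus and compound, 7760.1 to 10920 with PPARγ virus and vehicle, 7177 to 10801 with null virus and compound and 8169 to 11644 with null virus and vehicle. The 17 leukocyte markers on the array summed to 843.9 to 1277 with PPARγ virus and compound, 822.8 to 1477 with PPARγ virus and vehicle, 723.8 to 1161 with null virus and compound and 861.4 to 1245 with null virus and vehicle. The groups overlapped for each of these sums, except that the adipocyte sum with PPARγ virus and compound lay above that with null virus and vehicle. Of the single probe sets tested, 4.06% did so. Since the adipocyte genes are also PPARγ targets, more such cells and more RNA per cell cannot be told apart. The part of these sums in the results was not tested.

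The duct keratin gene Krt19 was at 205.0 to 296.1 with PPARγ virus and compound, 114.7 to 210.0 with PPARγ virus and vehicle, 66.5 to 138.7 with null virus and compound and 72.2 to 141.5 with null virus and vehicle. It was 1 of 7 tested duct markers to pass, in the combined contrast (0.665% of all probe sets called) and for the virus in compound (0.705%). The sum of the 8 duct markers on the array was 6254 to 7025 with PPARγ virus and compound and 6697 to 7115 with PPARγ virus and vehicle. It was 6021 to 6878 with null virus and compound and 5910.3 to 7294 with null virus and vehicle, so the groups overlapped. The beta cell identity of the tissue was plain from Ins1, at 4627 to 7093, and Ins2, at 3314 to 4421, over the 14 arrays.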

How the data were processed

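RNA of rat islets was measured on a rat oligonucleotide array. The deposited values are intensity, 1 per probe set on a linear scale, already scaled per array by the authors. Neither the summary software nor a genome build is given in the sources used here. Columns were assigned by their labels. The 2 columns labelled null virus replicate 2 held identical values in all 15923 probe sets (the next pair in 0.936%) and were left out, leaving 14 arrays. The number of arrays limits the precision.

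Values were used as log2(intensity + 4.6), 4.6 being the 10th percentile of positive values. Probe sets above 39.3, the 40th percentile, in at least 4 arrays were tested (10078), and 57 control probe sets were not. limma 3.58.1 in R 4.3.3 fitted a mean per group with a trend, with p-values adjusted by Benjamini and Hochberg over the 10078 at a threshold of 0.05. Figures used matplotlib 3.10.9 in Python 3.11.15. The fit was tested on simulated data.

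The members, lists, contrasts and alternatives were chosen with earlier results of these data known. Named genes were all members, fixed pathway genes, list genes that passed, defining cell markers and the 5 genes most alike by correlation. Replicate numbers were taken to pair arrays within a virus, since deviations of same-numbered arrays correlated at 0.574 to 0.702 under the PPARγ virus and at 0.445 to 0.475 under the null virus. Across viruses they ran from -0.120 to 0.433, so the 0.1 asked of every pair was not met by all. The arrays of number 1 were highest there, at 0.433 in vehicle and 0.302 in compound. Alternatives changed the pseudocount, filter, scaling, trend, block, the shared array, the groups fitted and each array in turn. Promoters and neighbouring genes came from RefSeq tables of GRCr8, and 10 of 10 genes matched.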

Additional observations from a re-analysis of the deposited data

Results flagged for a closer look

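Igf2 1367571_a_at stood apart on PPARγ virus compound replicate 2, at 426.3 where the other arrays of its group were at 142.9 to 157.7. The vehicle array of the same number was also the highest of its group, at 304.6. Igf2r 1386872_at was low on PPARγ virus vehicle replicate 4, at 394 beside 450.6 to 459.8 in the rest of the group. The adipocyte marker sum was high on PPARγ virus compound replicate 1, at 91.1 beside 52.6 to 58.8. Of 44 groups of 4 arrays checked, 3 held such an array, and chance gives about 1 in 20.

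The compound difference had opposite signs in all pairs of the PPARγ virus and all pairs of the null virus for Igfbp1, with a difference of 1.48 that was not tested because the gene was picked for its rise. It also did for Igfbp3 1386881_at, with a difference of 0.52 (limma adjusted p = 1.00, and 0.681 with the replicate block within each virus). For this probe set the smallest log2 change in a null virus pair was -0.005. The other Igfbp3 probe set, 1367652_at, did not, being higher with compound in 3 of 4 PPARγ virus pairs and with a difference of 0.19. Of all probe sets, 0.764% were higher in every PPARγ virus pair and lower in every null virus pair.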

How the results depend on the processing

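The number of called probe sets among the 8 genes other than Igf1 and Igfbp1 was 0 in 163 of 164 recomputations over 28 settings. In the combined contrast it ranged from 0 to 1 when single arrays were left out, the call being Igfbp2 without PPARγ virus compound replicate 1. The combined log2 change of Igfbp3 1367652_at, 0.15, became -0.02 without null virus vehicle replicate 3, -0.11 without PPARγ virus compound replicate 1 and -0.09 without PPARγ virus compound replicate 3, in a range of -0.11 to 0.43 over the arrays left out in turn. The log2 changes of Igf1 and Igfbp1, which had no test, moved by more than the spread between replicates in 2 of 486 recomputations. Both were Igf1 1370333_a_at with a pseudocount of 16, at 1.96 for the virus in compound and 1.98 in the combined contrast, where a larger pseudocount shrinks changes of dim probe sets by construction. Over the arrays left out in turn, its compound change under the PPARγ virus ranged from 1.90 to 2.66, and that of Igfbp1 from 0.81 to 1.44.

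With the replicate block within each virus, calls over all probe sets were 40 for compound under the PPARγ virus (6 without it), 5 for the interaction (0 without it) and 0 for compound under the null virus, with 0 of the 10 probe sets among them. The block over all groups, although numbers did not pair arrays across viruses, gave 177 calls in the combined contrast (67 without it), 211 for the virus in compound (71) and 34 for the virus in vehicle (4), again with 0 of the 10. Leaving out single arrays gave 39 to 71 calls in the combined contrast, 31 to 71 for the virus in compound, 2 to 7 for compound under the PPARγ virus and 3 to 7 for the virus in vehicle. Fitting the compared groups alone gave 42, 43, 2 and 1 calls in these contrasts. Igfbp2 fell below the intensity limit and was not tested in 4 of the 14 fits without an array.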
